A study of Mus musculus with 10 samples.

Results

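Neuropeptide precursors and granins are the cargo of dense-core vesicles, and the 10 genes described here are the precursors Crh, Nts, Gal, Npy, Tac1, Penk, Sst and Cartpt and the granins Vgf and Scg2. They were taken by symbol from the 34254 genes of the count matrices, and all 10 symbols were found. The study profiled single retinal ganglion cells, the neurons whose axons form the optic nerve, from wild-type 129S1/SvImJ mice of both sexes at 12 weeks of age (postnatal day 84). The 6 uninjured libraries come from intact retinas, and the 4 injured libraries from retinas taken 2 weeks after optic nerve crush (ONC), which injures the axons of these cells behind the eye. For each batch 10 retinas were pooled, macrophages (per the study's methods also amacrine cells) were depleted by immunopanning, ganglion cells were captured by Thy1 immunopanning and 6000 cells were loaded for 10x Chromium capture. Animals cannot be separated within a pool, and cells counted after ONC are those still present at 2 weeks.

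The uninjured libraries hold 98, 103, 363, 651, 267 and 201 cells, and the injured libraries hold 338, 273, 527 and 471 cells. Total unique molecular identifiers (UMIs, each a counted transcript molecule) ran from 2839693 in Uninjured 1 to 23180399 in Uninjured 4, and from 4698799 in Injured 2 to 8860536 in Injured 3. A typical uninjured cell held more UMIs (library medians of 20437 to 34337) than a typical injured cell (11257 to 14695). Detection in single cells was therefore compared after thinning to 8000 UMIs per cell. Shallower cells were left out, 1 to 14 per uninjured library and 32, 22, 67 and 112 in Injured 1, 2, 3 and 4. All 7 ganglion cell markers were detected in both groups, and their summed level was 5728 to 8165 CPM (counts scaled to a common library size) in uninjured and 4273 to 5427 CPM in injured samples, with Sncg the most abundant.

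Several libraries stand apart from their labels or from each other. Injured 3 and Injured 4 share 421 cell barcodes and differ by no more than counting noise, so their counts were averaged and treated as 1 sample, named Injured 3/4, which leaves 9 samples. UMIs of the viral reporter mCherry, absent from all uninjured libraries, occur in 7.99% of cells of Injured 1, 15.0% of Injured 2, 86.0% of Injured 3 and 84.3% of Injured 4, although the labels name no virus. Xist, the transcript of the inactive X chromosome, marked most cells of Injured 1 (62.1%) and Injured 2 (67.4%), while no other library exceeded 0.569%. In the uninjured libraries it was in 0 to 0.461% of cells, although the study names mice of both sexes. The sex of the cells thus seems to differ in part between the compared groups. What part sex has in the differences after ONC was not tested. Only 1 barcode is shared by another pair, Uninjured 2 and 4. The pairs Uninjured 1 and 2, 3 and 4, 5 and 6, and Injured 1 and 2 are called similar libraries: their counts differ by 1.75, 1.81, 1.44 and 2.11 times the counting noise, and those of all other pairs but Injured 3 and 4 by 3.46 times or more.

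Neuropeptides are cut from larger precursors by prohormone convertases inside dense-core vesicles and are released by strong or repeated firing to act on G protein-coupled receptors. Granins are acidic proteins that help these vesicles form and are themselves cut into peptides. In the retina most neuropeptides are known from amacrine cells, while subsets of ganglion cells carry some of them, and several peptide genes are known to be induced in sensory and motor neurons when an axon is cut.

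Most of the 10 genes differed after ONC, and most were higher. Crh, Nts, Gal, Npy, Tac1, Vgf and Scg2 rose, Cartpt fell, Penk did not pass the test and Sst had too few counts to be tested. The rises in fitted level ran from 1.95-fold for Scg2 to 95.1-fold for Crh, with a larger ratio for Nts, which had 2 UMIs in all uninjured cells. Of the 9 tested genes 8 passed an adjusted p of 0.05 in edgeR, where 44.0% of the 14234 genes tested did so. The 7 that rose stand beside 21.3% of all tested genes, and the 1 that fell beside 22.7%. The 3 injured samples lay outside the range of the 6 uninjured samples for 7 of the 9 genes, where 42.9% of all tested genes did so. Of these, 6 lay above, beside 21.9% of all tested genes, and 1 below, beside 21.1%. The median log2 fold change (injured over uninjured) of the 9 tested genes was 3.02, and that of all tested genes was -0.03. A gene present only after injury passes the count filter through its injured samples, so these counts describe the 9 genes and are no measure of the precursors as a class. Adjusted p-values measure only the spread between these samples. Because ganglion cell subtypes survive ONC unequally, a change within cells and a change in the mix of surviving cells cannot be told apart here.

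**Figure D1:**
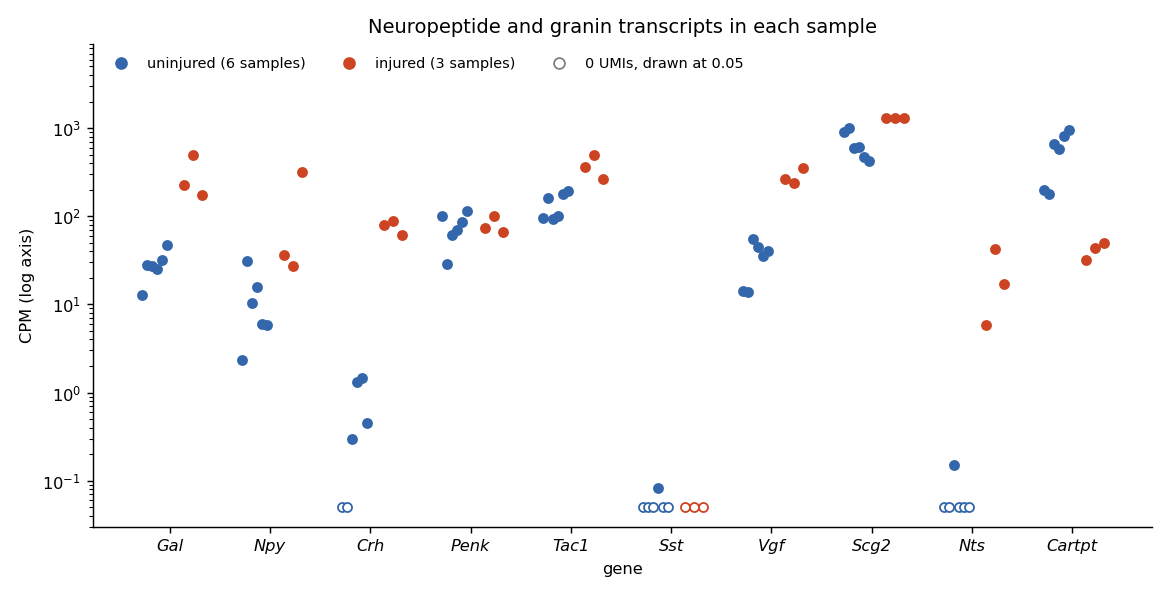
Level of each gene in CPM (log axis) in the 6 uninjured samples (blue) and the 3 injured samples (red), with open circles for samples with 0 UMIs. The injured points lie above all uninjured points for Crh, Nts, Gal, Tac1, Vgf and Scg2, below them for Cartpt and among them for Penk, and for Npy Injured 2 alone lies among them.

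Promoter sequences of 7 of the 10 genes were found in a RefSeq table (build GRCm38.p6, 250 bases before to 50 after the start), for Scg2, Tac1, Npy, Nts, Cartpt, Sst and Gal but not for Crh, Penk and Vgf. They were searched on both strands for the cyclic AMP response element (CRE) TGACGTCA, its core TGACG, the AP-1 site TGAGTCA and the TATA box TATAAA. Every CRE also contains the core. The CRE, the site bound by CREB-family factors, occurs in Scg2, Cartpt and Sst, beside 1.79% of all 32851 promoters. The core occurs in Scg2, Tac1, Nts, Cartpt, Sst and Gal, beside 20.8%. The AP-1 site, bound by Fos and Jun proteins, occurs in Nts alone, beside 5.20%, and TATAAA occurs in none of the 7, beside 13.6%. The 4 promoters with a CRE or an AP-1 site are shown because genes with the same letters went different ways after ONC: Scg2 rose, Cartpt fell and Sst was near 0 throughout. The windows lie, located by exact match in GRCm39, at chr1:79417694-79417993 (Scg2), chr13:100037142-100037441 (Cartpt), chr16:23709545-23709844 (Sst) and chr10:102326230-102326529 (Nts), all on the minus strand. Capitals mark the CRE in the first 3 and, in Nts, the AP-1 site followed by the core read on the other strand.
Scg2: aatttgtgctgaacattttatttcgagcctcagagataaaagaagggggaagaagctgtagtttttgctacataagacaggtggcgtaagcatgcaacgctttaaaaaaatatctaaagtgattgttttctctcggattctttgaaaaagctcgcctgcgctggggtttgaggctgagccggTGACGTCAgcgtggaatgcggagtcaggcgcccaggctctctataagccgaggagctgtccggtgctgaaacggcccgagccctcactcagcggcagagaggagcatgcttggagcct
Cartpt: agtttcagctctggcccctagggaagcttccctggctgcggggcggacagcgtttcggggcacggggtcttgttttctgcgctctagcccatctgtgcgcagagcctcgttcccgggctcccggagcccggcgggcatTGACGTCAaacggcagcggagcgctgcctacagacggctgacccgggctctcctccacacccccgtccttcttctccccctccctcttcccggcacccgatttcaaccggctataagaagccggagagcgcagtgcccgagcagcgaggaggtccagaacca
Sst: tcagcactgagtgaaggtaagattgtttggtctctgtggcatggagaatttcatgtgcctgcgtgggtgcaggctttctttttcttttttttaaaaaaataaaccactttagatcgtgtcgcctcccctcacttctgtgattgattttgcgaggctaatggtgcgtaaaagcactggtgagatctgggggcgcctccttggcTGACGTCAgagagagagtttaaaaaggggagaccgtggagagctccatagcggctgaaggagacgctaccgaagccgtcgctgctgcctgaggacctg
Nts: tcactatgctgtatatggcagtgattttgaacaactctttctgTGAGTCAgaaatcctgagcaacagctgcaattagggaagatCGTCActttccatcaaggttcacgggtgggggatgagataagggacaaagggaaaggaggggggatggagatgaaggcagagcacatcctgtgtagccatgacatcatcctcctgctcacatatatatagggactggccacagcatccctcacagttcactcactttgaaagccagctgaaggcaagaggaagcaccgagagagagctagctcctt
The first base of the CRE lies at -68 from the start in Scg2, -112 in Cartpt and -48 in Sst, and the AP-1 site of Nts lies at -207. A match of letters does not show that a factor binds there.

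Crh, the precursor of corticotropin-releasing hormone, went from close to 0 to a steady level in every injured sample. The gene (ENSMUSG00000049796) lies at chr3:19747565-19749655 on the minus strand of GRCm39. Its level was 0 CPM at the lowest, 0.377 at the median and 1.47 at the highest of the 6 uninjured samples, and 80.2, 87.8 and 61.4 CPM in Injured 1, Injured 2 and Injured 3/4. Every injured sample stood far above every uninjured one, and the injured samples were close to each other. The log2 fold change was 6.57 (SE 0.39, n = 6 and 3, edgeR adjusted p = 2.09e-07), a 95.1-fold rise that rests on 46 uninjured UMIs. Of those, 32 UMIs are in Uninjured 4, without which the log2 value was 7.28. It was 5.87 in cells thinned to 8000 UMIs and 8.10 in cells with 3 to 5% of their UMIs from Malat1, a nuclear transcript.

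Nts, the precursor of neurotensin, was detected almost only after ONC. The gene (ENSMUSG00000019890) lies at chr10:102317614-102326396 on the minus strand. Its level was 0 CPM at the lowest and at the median and 0.150 at the highest of the uninjured samples, and 5.78, 42.4 and 17.2 CPM in the 3 injured samples. A single cell of Uninjured 3 held both uninjured UMIs, and Injured 1 was the lowest injured sample. With 2 UMIs against 350, the ratio of summed UMIs per total was 505, with an exact 95% counting interval of 139 to 4183 (edgeR adjusted p = 5.98e-06). The fitted log2 fold change was 8.67 (SE 0.81), and it was 10.30 without Uninjured 3, 7.97 without Uninjured 4 and 7.80 without Injured 2. When similar libraries were treated as blocks in limma-voom, Nts did not pass (adjusted p = 0.165, range over its 22 alternatives 7.15e-10 to 0.165).

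Gal, the precursor of galanin, a peptide known to be induced in axotomized sensory neurons, rose in every injured sample. The gene (ENSMUSG00000024907) lies at chr19:3459912-3464881 on the minus strand. Its level was 12.8 CPM at the lowest, 27.8 at the median and 47.4 at the highest of the uninjured samples, and 225, 494 and 173 CPM in the injured samples. The groups did not overlap, and Injured 2 was the highest of all samples. Its log2 fold change was 3.36 (SE 0.35, edgeR adjusted p = 1.43e-05), a 10.3-fold rise. It was 2.47 in cells thinned to 8000 UMIs and 4.53 in cells with 3 to 5% of their UMIs from Malat1, a nuclear transcript, where Uninjured 5 and 6 keep 7 and 8 cells.

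Npy, the precursor of neuropeptide Y, passed the test mainly through Injured 3/4, the sample with most reporter-positive cells. The gene (ENSMUSG00000029819) lies at chr6:49799026-49806489 on the plus strand. Its level was 2.36 CPM at the lowest, 8.18 at the median and 31.4 at the highest of the uninjured samples, and 35.9, 27.2 and 315 CPM in the injured samples. Injured 3/4 stood far above all others, and Injured 2 lay within the uninjured range, below Uninjured 2. The log2 fold change was 3.39 (SE 0.75, edgeR adjusted p = 0.00327), a 10.5-fold difference. Without Injured 3/4 it was 1.41 with an adjusted p of 0.0965, in cells without mCherry UMIs 0.99 with 0.259, in cells with 3 to 5% Malat1 2.38 with 0.0549, and with similar libraries as blocks 2.98 with 0.142. Over its 24 alternatives the adjusted p ran from 1.22e-04 to 0.259, and the log2 value from 0.99 to 5.68, the latter in cells without 3 or more markers of another retinal class.

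Tac1, the precursor of substance P and neurokinin A, rose in all injured samples. The gene (ENSMUSG00000061762) lies at chr6:7554120-7565834 on the plus strand. Its level was 92.3 CPM at the lowest, 129 at the median and 193 at the highest of the uninjured samples, and 365, 497 and 264 CPM in the injured samples. The groups did not overlap, and Injured 3/4 was the nearest to the uninjured range. On the log2 scale the change was 1.46 (SE 0.28, edgeR adjusted p = 0.00111), a 2.76-fold rise.

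Penk, the precursor of the enkephalins, gave no difference past the threshold. The gene (ENSMUSG00000045573) lies at chr4:4132722-4141856 on the minus strand. Its level was 28.6 CPM at the lowest, 78.6 at the median and 115 at the highest of the uninjured samples, and 73.5, 100 and 66.5 CPM in the injured samples. The injured samples all lay inside the uninjured range. The log2 fold change was 0.06 (SE 0.33, edgeR adjusted p = 0.907), and it was -0.09 without Uninjured 2, -0.13 without Injured 2 and -0.00487 when scaled by library totals, so its sign is not fixed.

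Sst, the precursor of somatostatin (ENSMUSG00000004366, chr16:23707321-23711733, minus strand), was represented by 2 UMIs in 2 cells of Uninjured 4 and by 0 UMIs in all other libraries. Uninjured 4 is the deepest library, and the gene was not tested.

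Cartpt encodes the precursor of cocaine- and amphetamine-regulated transcript peptide, a marker of direction-selective ganglion cells, and was the only one of the 9 tested genes to fall. The gene (ENSMUSG00000021647) lies at chr13:100034990-100047006 on the minus strand. Its level was 177 CPM at the lowest, 620 at the median and 947 at the highest of the uninjured samples, and 31.7, 43.6 and 50 CPM in the injured samples. Uninjured 1 and 2 were the lowest uninjured samples, at 199 and 177 CPM, and still stood above every injured sample. The log2 fold change was -3.76 (SE 0.59, edgeR adjusted p = 2.93e-04), a level 13.5-fold lower. In cells with 3 to 5% Malat1 it was -1.80.

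Vgf, a granin-like protein known to be induced by neurotrophins, rose in every injured sample. The gene (ENSMUSG00000037428) lies at chr5:137055246-137062205 on the plus strand. Its level was 13.7 CPM at the lowest, 38.3 at the median and 54.7 at the highest of the uninjured samples, and 263, 236 and 349 CPM in the injured samples. Uninjured 1 and 2 were the lowest, and the injured samples were well apart from all others. In log2 terms this was 3.02 (SE 0.36, edgeR adjusted p = 3.96e-05), an 8.10-fold rise.

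Scg2, the precursor of secretoneurin, was read in nearly all cells and rose to the same level in the 3 injured samples. The gene (ENSMUSG00000050711) lies at chr1:79412386-79417837 on the minus strand. Its level was 423 CPM at the lowest, 600 at the median and 1002 at the highest of the uninjured samples, and 1313, 1288 and 1299 CPM in the injured samples. The uninjured samples were spread more widely than the injured ones, and Uninjured 1 and 2, at 914 and 1002 CPM, came nearest to them. For Scg2 the log2 fold change was 0.96 (SE 0.26, edgeR adjusted p = 0.0103), a 1.95-fold rise. It was 0.44 with an adjusted p of 0.171 in cells with 3 to 5% Malat1, 0.69 with 0.153 in cells without mCherry UMIs and 0.95 with 0.0746 when similar libraries were summed. The adjusted p ran from 0.00156 to 0.171 over its 26 alternatives.

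Cells with at least 1 UMI of a gene are called carriers of it here. Vgf and Tac1 were carried by a minority of uninjured cells and by most injured cells, while Crh and Nts were carried by almost no uninjured cells and by a small set of injured cells. Cartpt was carried, at 1 UMI or more, by about every second uninjured cell and by few injured cells. At least 3 Cartpt UMIs were held by 16.7 to 30.0% of cells in uninjured and 1.39 to 3.19% in injured libraries. At least 10 were held by 1.96 to 10.0% and 0.652 to 0.980%, so many uninjured carriers held few UMIs. Shares are of cells thinned to 8000 UMIs, and no test was made on them.

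Vgf was carried by 4.90% of cells at the lowest, 15.0% at the median and 20% at the highest of the uninjured samples, and by 66.0%, 63.3% and 67.6% in Injured 1, Injured 2 and Injured 3/4. Tac1 was carried by 25.0%, 31.2% and 38.2% (lowest, median, highest) of uninjured cells, and by 69.0%, 70.5% and 55.4% of injured cells. For both genes the groups were far apart. Gal was carried by 5.26%, 9.15% and 15.0% of uninjured cells, and by 22.5%, 27.1% and 24.3% of injured cells. Crh was carried by 0%, 0.448% and 0.621% of uninjured cells, and by 10.8%, 11.6% and 11.1% of injured cells. For both genes the 3 injured samples had nearly equal shares, all above the uninjured samples. Nts was carried by 0%, 0% and 0.278% of uninjured cells, and by 1.63%, 5.18% and 4.54% of injured cells. Cartpt was carried by 48.0%, 56.5% and 60.0% of uninjured cells, and by 8.82%, 10.4% and 6.16% of injured cells, with no overlap.

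For 3 genes the shares of the groups overlapped. Npy was carried by 0%, 2.67% and 4.66% of uninjured cells, and by 4.25%, 3.98% and 9.53% of injured cells. Penk was carried by 6.86%, 15.0% and 18.0% of uninjured cells, and by 16.0%, 16.3% and 16.0% of injured cells. Only Injured 3/4 stood out for Npy, and for Penk none did. Scg2 was carried by 80.0%, 88.1% and 97.1% of uninjured cells, and by 96.7%, 96.8% and 94.1% of injured cells, while its mean in carriers was 4.39 to 9.08 UMIs in uninjured and 11.7 to 12.7 UMIs in injured libraries. Sst was in 0 thinned cells. In Uninjured 1, the library with the fewest cells, a floor of 3 cells with a UMI is a share of 3.16%, and the exact 95% upper limit is 3.81%. Exact 95% intervals ran, for example, from 7.54% to 14.8% for Crh in Injured 1. Intervals and floors cover counting error only.

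**Figure D2:**
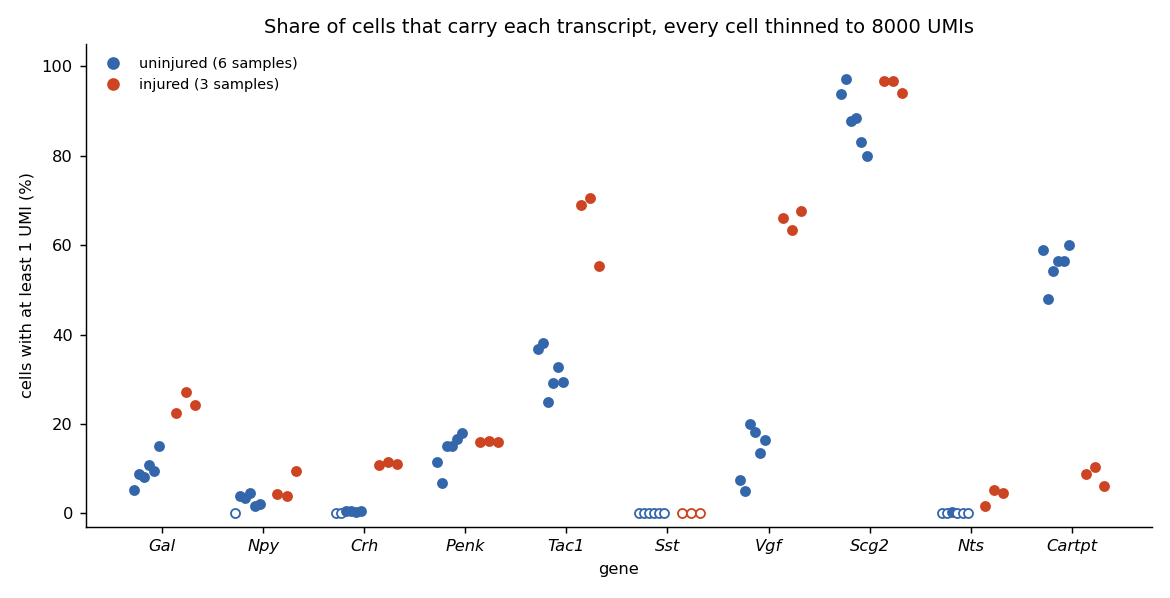
Share of cells (%) with at least 1 UMI of each gene after thinning to 8000 UMIs per cell, in the 6 uninjured (blue) and 3 injured (red) samples. Vgf and Tac1 are carried by a minority of uninjured and by most injured cells, Crh by at most 0.621% and by 10.8 to 11.6%, and Cartpt by 48.0 to 60.0% and by 6.16 to 10.4%.

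Shares in unthinned cells, which differ in depth between the groups, were higher for most genes. Vgf was then found in 21.4 to 41.6% of uninjured and 72.9 to 79.6% of injured cells, Crh in 0 to 1.69% and 12.5 to 13.6%, and Cartpt in 69.3 to 82.0% and 9.98 to 15.4%. Unthinned Npy was found in 2.49 to 11.7% of uninjured and 5.86 to 9.79% of injured cells. Marker genes of other retinal cells were counted in the same cells at the same depth of 8000 UMIs, for comparison. Sag of rods was in 0.980 to 3.16% of uninjured and 0.883 to 2.79% of injured cells, and C1qa of microglia in at most 0.500% and 0%. The uninjured shares of Crh and Nts lie below the range of Sag, and their injured shares, apart from that of Nts in Injured 1, are above those of Sag. Apoe of glia was in 1.98 to 7.61% of uninjured and 0.961 to 2.39% of injured cells, and Gad1 of amacrine cells in 4.50 to 16.3% and 3.63 to 8.76%. Gad1 was also held at 3 or more UMIs, by 2.00 to 4.81% of uninjured and 0.496 to 2.39% of injured cells. The uninjured shares of Npy lie at or below the highest shares of these 2 genes, and its shares in Injured 1 and 2 lie below those of Gad1 in the same samples. Gal was below Gad1 in Uninjured 1, 3 and 4, but above it in Uninjured 2 (8.82% against 7.84%), Uninjured 5 (9.49% against 5.93%) and Uninjured 6 (15.0% against 4.50%). Glul, a glial gene, was in 24.7 to 34.7% of uninjured and 29.1 to 33.0% of injured cells, so a share of this size is not by itself above what a gene of other cells shows. Rlbp1 of Muller glia was in 0 to 1.55% of uninjured and 5.23 to 8.76% of injured cells, so the injured shares of Nts lie below this gene's range. With at least 3 UMIs required, Rlbp1 was in 0 to 0.327% of injured cells and Nts in 0.327%, 2.39% and 1.38%. These genes did not move together between the groups, and what part free RNA has in these shares was not tested.

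Among carriers the number of UMIs also differed. The mean for Gal was 2.00 to 3.13 UMIs per uninjured carrier and 4.04 to 7.13 per injured carrier, so both the share and the content of carriers were higher. For Npy the mean was 5.92 and 4.00 UMIs in Injured 1 and 2 and 17.1 and 12.3 in Injured 3 and 4. For Cartpt the mean was 2.86 to 10.9 UMIs per uninjured and 2.78 to 9.90 per injured carrier, but single cells with 114 and 115 UMIs weigh on the means of Injured 3 and 4. At least 3 Cartpt UMIs were held by 6 of 27, 8 of 26, 8 of 31 and 5 of 20 carriers in the injured libraries, and by 20 of 56, 17 of 49, 86 of 195, 175 of 364, 76 of 143 and 57 of 120 in the uninjured libraries, a higher share in each. In the 421 barcodes found in both Injured 3 and 4, Crh was seen in 60 and 61 cells, of which 52 had it in both, and Nts in 28 and 23, of which 20 had it in both.

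Some genes were held by a handful of cells. In Injured 3 a single cell held 1408 of the 3284 Npy UMIs (42.9%), and in Injured 2 a single cell held 76 of the 189 Nts UMIs (40.2%). Leaving out the richest cell of each library for every gene, an alternative chosen after seeing the data, kept all 8 calls, with log2 values of 7.25 for Crh and 9.90 for Nts. The 5 richest cells held 61.7 to 100% of the Npy UMIs in uninjured and 51.9 to 76.0% in injured libraries. For Cartpt they held 19.5 to 41.5% in uninjured and 59.3 to 80.4% in injured libraries, with no overlap. For Vgf they held 12.9 to 61.9% and 10.4 to 13.2%, and for Scg2 4.27 to 14.6% and 3.40 to 6.47%.

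**Figure D3:**
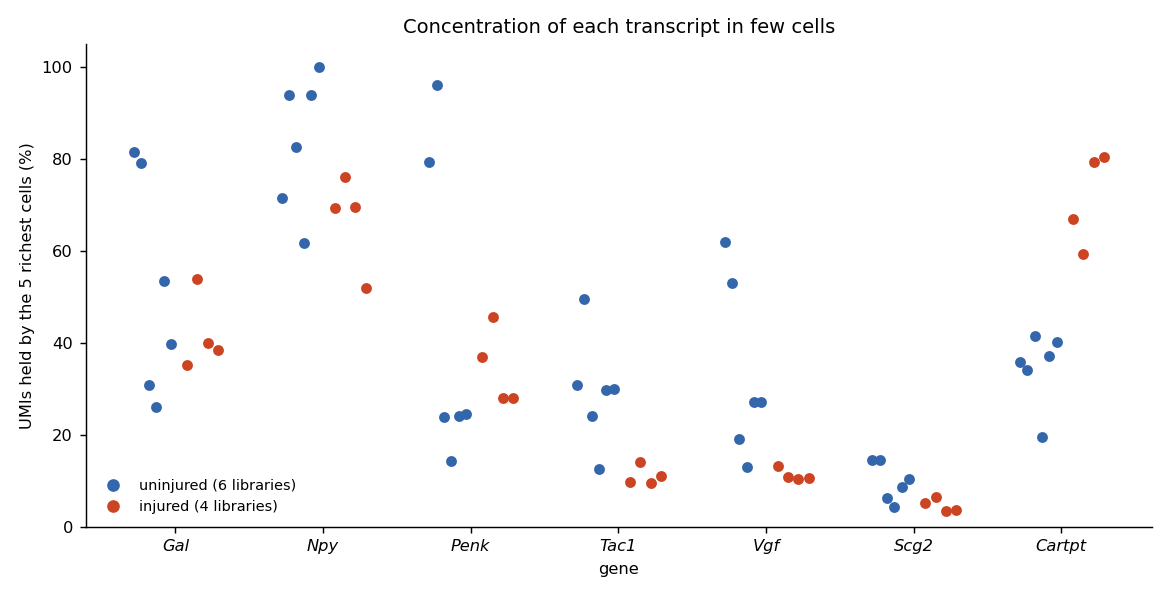
Share of each gene's UMIs (%) held by the 5 cells with most UMIs in each of the 6 uninjured (blue) and 4 injured (red) libraries, for 7 genes. Npy is held by few cells in both groups, Scg2 by many, and for Cartpt the share is 19.5 to 41.5% in uninjured and 59.3 to 80.4% in injured libraries.

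Injured cells carried more of these genes on average. The mean is the sum of the carrier shares given above, so its rise follows from them, most of all from Vgf and Tac1. It is no separate result on which genes occur together. A thinned uninjured cell carried 2.08 to 2.24 of the 10 genes on average, and a thinned injured cell 2.86 to 3.05. Cells with 4 or more of the genes made up 3.16 to 10.5% of uninjured and 25.7 to 29.5% of injured cells, and the most in a single cell was 7.

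Carriers of different genes were partly the same cells. In injured samples Gal was found in 57.6% (median over 3 samples) of Crh carriers and in 21.3% of other cells, higher in 3 of 3 samples, and Crh in 26.5% of Gal carriers and 6.01% of other cells. Crh carriers had Tac1 less often, in 54.5% against 70.7% of other cells, and Vgf more often, in 78.0% against 64.1%.

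Penk and Tac1 were carried by largely different cells in uninjured samples. In injured samples the difference had the same direction but was smaller. In uninjured samples Tac1 was found in 2.38% of Penk carriers and 35.4% of other cells, lower in 5 of 5 samples with at least 10 carriers. In injured samples it was found in 65.9% of Penk carriers and 69.3% of other cells, lower in 3 of 3 samples. Penk was in turn found in 1.45% of uninjured Tac1 carriers against 19.2% of other cells (lower in 6 of 6 samples). In injured samples it was in 15.3% against 17.4% (lower in 3 of 3). The overlap of both genes thus lay far apart in the groups, while the level of Penk did not pass the test. Scg2 was found in 72.2% of uninjured Penk carriers against 89.9% of other cells (lower in 5 of 5), and in 98.0% against 96.5% after injury. Among uninjured Gal carriers Penk was in 36.7%, against 13.9% of other cells (higher in 4 of 4). After injury it was in 20.3% against 14.8% (higher in 3 of 3). Whether the difference between groups exceeds the spread of samples was not tested for any pair.

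**Figure D4:**
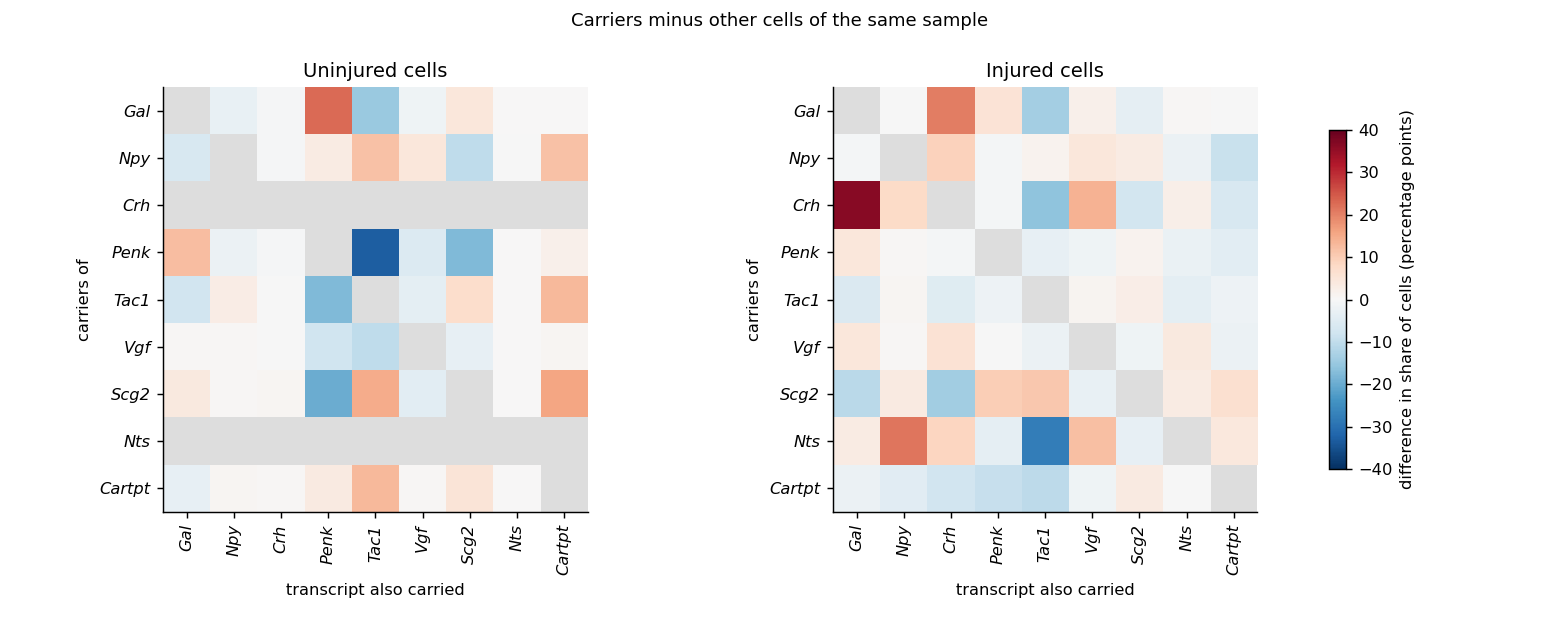
Difference, in percentage points, between the share of carriers of one gene (vertical axis) that also carry another (horizontal axis) and that share in the other cells, as medians over uninjured (left) and injured (right) samples with at least 10 carriers; grey cells have no value. Few Penk carriers hold Tac1 in uninjured samples (2.38% against 35.4%), and many Crh carriers hold Gal in injured samples (57.6% against 21.3%).

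Carriers also differed from other cells in markers of ganglion cell subtypes and of axon injury. Injured Crh carriers had Sprr1a, a growth-associated injury gene, in 79.3% against 27.4% of other cells, and Hrk, a pro-apoptotic gene, in 48.3% against 78.8%, in 3 of 3 samples each. They had the transcription factor Ebf3 in 37.9% against 79.7% and Meis2 in 45.5% against 18.0%. Injured Gal carriers had Sprr1a in 52.9% against 26.7% and Hrk in 63.8% against 80.2%. Of the other injury genes, Gadd45a was in more Crh carriers (80.2% against 67.4%) and Gal carriers (72.5% against 68.8%) and Ddit3 in fewer (79.3% against 93.0% and 85.3% against 94.1%), while Ecel1, Sox11 and Jun differed in direction, in 3 of 3 samples each. Crh carriers had more Ecel1 (97.0% against 92.3%), Sox11 (100% against 95.9%) and Jun (96.6% against 95.5%), and Gal carriers had less Ecel1 (91.2% against 93.7%), Sox11 (94.1% against 97.3%) and Jun (94.1% against 96.2%). Atf3, Gap43 and Stmn2 of the same list are not described in carriers here, and the genes named were chosen after their values were seen. Injured Nts carriers had Sprr1a in 76.3% against 29.7% of other cells and Spp1, a marker of alpha ganglion cells, in 18.9% against 5.22%, in the 2 samples with at least 10 carriers. Injured Tac1 carriers had less Spp1 (0.948% against 12.6%) and less Opn4, the photopigment of intrinsically photosensitive ganglion cells (1.69% against 13.8%), and more Calb2 (80.8% against 55.4%). Uninjured Gal carriers had Opn4 in 15.3% against 2.27% of other cells, in 4 of 4 samples. Uninjured Penk carriers had the transcription factor Zic1 in 35.2% against 0.474% and Igf1 in 0% against 24.8%, in 5 of 5 samples. Uninjured Cartpt carriers had Tfap2d in 26.7% against 5.23% (6 of 6 samples), and the carriers left after injury had it in 22.2% against 7.17% (3 of 3).

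The genes most like each member were ranked by the lowest log2 ratio of CPM in carriers over other cells among the samples with at least 10 carriers (prior of 5 CPM, at least 20 CPM in carriers). In injured samples the 5 genes most like Gal were Bst2 (2.06), Ifit1 (1.86), Rsad2 (1.78), Oasl2 (1.74) and Ifi202b (1.65), all known as interferon-induced genes. For Crh they were Ifit1 (2.61), Ifi202b (2.44), AA467197 (2.42), Glis3 (2.23) and Neto1 (2.22), so Ifit1 and Ifi202b stand on both lists. For Vgf they included Spp1 (1.93), Ucn (1.33), Id2 (0.88) and Mmp12 (0.75), and for Npy they were Ucn (1.61), Id2 (1.58), Net1 (1.23), Mmp12 (1.22) and Glra1 (1.21). Ucn, a peptide of the Crh family, also stands among the genes of Nts, with Spp1 (2.61), Sprr1a (1.95), Inhba (1.54), Ucn (1.48) and Cebpd (1.46) over 2 samples. For injured Tac1 they were Rhoc (1.26), Ctnnbip1 (1.19), Runx1 (1.18), Mkx (1.18) and Cdr2 (1.08), and for injured Penk the ratios were low, among them Colec12 (0.74), Serpinf1 (0.73), Fibin (0.71) and Pou4f3 (0.68).

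In uninjured samples the lists were different ones. For Npy they were Gad1 (2.56), Igfbp2 (2.43), C1ql1 (2.42), Cplx3 (2.39) and Tfap2b (2.39) over 2 samples, of which Gad1 and Tfap2b are markers of amacrine cells. For Penk they were Prdm8 (2.76), Zic1 (2.47), Kctd4 (2.05), Antxr2 (1.81) and Cfap206 (1.71) over 5 samples. For Gal they were Prex2 (1.59), Tmie (1.53), Prlr (1.52), Gpx3 (1.48) and Prdm8 (1.45) over 4 samples. For Tac1 they were Lypd1 (1.65), Calb2 (0.98), Serpinb1b (0.91), D130009I18Rik (0.72) and Ppp1r17 (0.66) over 6 samples. For Vgf they were Bdnf (1.31), Cartpt (1.22), Calb1 (1.22), Pcsk1 (1.00) and Trp53i11 (0.93) over 4 samples, a list with both a neurotrophin and a prohormone convertase. Crh, Nts and Sst had too few uninjured carriers, and Cartpt and Scg2 were carried by 56.5% and 88.1% of uninjured cells in the median sample, so they were not ranked.

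Within injured libraries, cells with and without mCherry UMIs differed in some of the genes. Npy was in 9.63% of 405 mCherry-positive and 0% of 55 other thinned cells of Injured 3, and in 12.0% of 317 and 0% of 42 in Injured 4, but in 3.85% and 4.29% in Injured 1 and 5.88% and 3.69% in Injured 2. Nts was in 4.94% and 0% in Injured 3 and 5.36% and 0% in Injured 4, but in 0% and 1.79% in Injured 1 and 2.94% and 5.53% in Injured 2. The mCherry-positive thinned cells of Injured 1 and 2 number 26 and 34. Gal was in 24.7% and 7.27% in Injured 3 but in 26.5% and 27.2% in Injured 2, where most cells lack the reporter. Crh was in 9.88% and 14.5% in Injured 3 and 11.7% and 11.9% in Injured 4, but in 15.4% and 10.4% in Injured 1 and 14.7% and 11.1% in Injured 2. Scg2, carried by most cells, differed as well, in 96.3% and 74.5% in Injured 3 and 97.2% and 73.8% in Injured 4, but in 96.2% and 96.8% in Injured 1 and 97.1% and 96.8% in Injured 2. Cells without mCherry were few in Injured 3 and 4, and whether the virus has a part in any of these levels was not tested.

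Other genes of the pathway changed in both directions, and the counts of each list stand beside 21.3% of all tested genes that rose and 22.7% that fell, with a median log2 fold change of -0.03. Of 49 other neuropeptide precursors 17 were tested, of which 4 rose (Adcyap1, Nppc, Ucn and Adm2) and 5 fell (Vip, Cck, Pdyn, Pomc and Nppb), with a median log2 fold change of -0.15. Ucn, the precursor of urocortin, was at 0 UMIs in all uninjured samples and at 63.0, 38.2 and 132 CPM in the injured samples, at least 1455-fold higher against a floor of 3 counts over the uninjured group. Injured 3/4 is the highest, and without it the fitted log2 value of Ucn was 11.68 in place of 12.28. Adm2 was at 0 to 0.906 CPM in uninjured samples and at 11.2, 10.8 and 12.9 CPM in injured samples, a 35.7-fold rise (log2 5.16, SE 0.46). Adcyap1, the precursor of PACAP, rose 2.23-fold, from 27.4 to 72.1 CPM in uninjured samples to 75.8, 117 and 118 CPM. The Adcyap1 log2 value of 1.15 was 2.05 in cells with 3 to 5% Malat1. Nppb, the precursor of brain natriuretic peptide, fell, with 477 UMIs against 3, a ratio of 55.1 (counting interval 18.8 to 268). Its fitted log2 value of -6.07 was -9.62 without Injured 3/4 and -3.02 in cells with 3 to 5% Malat1 (adjusted p = 0.0177), and the call was kept in all 25 alternatives (adjusted p from 1.25e-09 to 0.0287). Cck, the precursor of cholecystokinin, was at 4.04 to 42.8 CPM in uninjured and 1.07 to 3.68 CPM in injured samples, 11.3-fold lower, with a log2 value of -3.49, and of -4.18 without Injured 1. The Cck call was lost in cells with 3 to 5% Malat1 (-1.42, adjusted p = 0.154) and with similar libraries as blocks (-3.56, 0.0532), within a range of 1.63e-04 to 0.154 over 25 alternatives. Vip was at 0 to 22.0 CPM in uninjured and 0.225 to 0.350 CPM in injured samples, with a log2 value of -4.61. Its call was lost without Injured 1 (-4.76, adjusted p = 0.0827), without Injured 2 (-4.50, 0.0820) or without Injured 3/4 (-4.54, 0.100), with no filter on low counts (-4.63, 0.105), without mCherry cells (-5.01, 0.0627) and with similar libraries as blocks (-4.59, 0.555), with a range of 0.00723 to 0.555 over 15 alternatives. In these the Vip value stayed between -5.01 and -4.50. The list's median is the same when genes at or near 0 UMIs in a group are set at their bound.

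Of the other granins and granin-like proteins, Chga, Chgb and Scg5 fell. All 5 were tested, and edgeR called 3 lower, beside 22.7% of all tested genes, and 0 higher, beside 21.3%, with a median log2 fold change of -0.64. In so short a list 0 higher is near the share over all genes. Chga, the precursor of chromogranin A, was at 142 to 251 CPM in uninjured samples and at 79.8, 81.7 and 70.9 CPM in injured samples, 2.65-fold lower (log2 -1.41, SE 0.21). Chgb was at 183 to 308 CPM and at 135, 124 and 118 CPM, 2.00-fold lower. Scg5, the chaperone of Pcsk2, was at 485 to 814 CPM and at 354 to 455 CPM, 1.56-fold lower, with a log2 value of -0.64. Its call was lost without Injured 1 (log2 -0.55, adjusted p = 0.128) and without Injured 2 (-0.61, 0.102), with 3 to 5% Malat1 (-0.52, 0.0969) and with similar libraries summed (-0.60, 0.183), within a range of 0.0110 to 0.183 over 26 alternatives. Scg3, at 156 to 213 CPM in uninjured and 176 to 189 CPM in injured samples, and Pcsk1n, at 554 to 1535 and 1156 to 1670 CPM, did not pass.

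Of 12 prohormone processing enzymes, 11 are in the matrices and were tested; Tmem27 was not analysed here. Cpe, Cpd and Qpct rose and Pcsk1 and Pcsk2 fell, with a median of 0.21. Cpe, the carboxypeptidase that trims peptides after cleavage, was at 414 to 564 CPM in uninjured samples and at 1262, 1231 and 1198 CPM in injured samples, a 2.62-fold rise (log2 1.39, SE 0.15). Qpct, which forms pyroglutamate at peptide ends, rose 3.96-fold, from 5.87 to 11.8 CPM to 26.8 to 37.1 CPM. Pcsk2, a convertase of dense-core vesicles, was at 191 to 298 and 102 to 127 CPM, 2.11-fold lower (log2 -1.07). In cells with 3 to 5% Malat1 the Pcsk2 value was -0.47 and not past the threshold (adjusted p = 0.0912, range 1.53e-09 to 0.0912 over 26 alternatives). Pcsk1 was at 27.0 to 34.5 and 20.9 to 26.0 CPM, 1.32-fold lower, and Cpd at 27.4 to 38.5 and 43.9 to 46.1 CPM, 1.37-fold higher. Cpd kept its call in 20 of 26 alternatives (adjusted p from 0.00591 to 0.169). It was lost without Injured 1 (log2 0.43, 0.0598), with library totals (0.37, 0.0682), in thinned cells (0.37, 0.136), with 3 to 5% Malat1 (0.36, 0.169), with similar libraries summed (0.44, 0.142) and with similar libraries as blocks (0.43, 0.0878), against a log2 value of 0.45 in the fit of all samples. Pcsk1 kept its call in only 12 of 26 alternatives (adjusted p from 0.00349 to 0.709), against a log2 value of -0.40 in the fit of all samples. Leaving out a sample lost it for Uninjured 1 (-0.37, 0.0600), 2 (-0.39, 0.0513), 3 (-0.34, 0.0740) and 4 (-0.37, 0.0651) and for Injured 1 (-0.37, 0.101) and 2 (-0.33, 0.127). It was also lost without cells of another class (-0.11, 0.709), in thinned cells (-0.27, 0.324), without mCherry cells (-0.39, 0.0504), with similar libraries summed (-0.35, 0.234) or as blocks (-0.35, 0.194), with no filter on low counts (-0.40, 0.0671) and without each gene's richest cell (-0.34, 0.0811). With 3 to 5% Malat1 the value turned to 0.23 (0.440).

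Of 24 genes of dense-core vesicle formation and release 22 were tested, Ptprn and Syt4 rose and 8 fell, with a median of -0.27. Rab27b, a vesicle GTPase, was at 40.6 to 98.0 CPM in uninjured and 11.5 to 13.5 CPM in injured samples, 4.85-fold lower. Rph3a, an effector of Rab3, was at 290 to 406 and 59.9 to 87.1 CPM, 4.47-fold lower. Rab3a was at 806 to 2040 and 295 to 375 CPM, 3.80-fold lower. Its log2 value of -1.93 was -1.24 in cells with 3 to 5% Malat1. Snap25, of the fusion machinery, was 2.84-fold lower and Resp18 2.86-fold lower, while Syt4, a synaptotagmin of dense-core vesicles, rose 2.23-fold, from 480 to 596 CPM to 1175 to 1278 CPM. The Resp18 call was lost in cells with 3 to 5% Malat1, where the log2 value was -0.81 in place of -1.52 (adjusted p = 0.119, range 3.08e-05 to 0.119 over 26 alternatives).

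Of 26 receptors and binding proteins of these peptides 8 were tested, and 5 fell, beside 22.7% of all tested genes, with a median of -1.34. In edgeR 0 were higher, which in 8 genes is not far from the 21.3% over all genes, and DESeq2, which tested 18, called 1 higher, Sstr1, with 3 UMIs against 14 (ratio 13.5, interval 3.76 to 73.0), named after its value was seen. Npy1r, a receptor of neuropeptide Y, was at 5.05 to 13.1 CPM in uninjured samples and at 0 UMIs in the injured samples, at least 58.7-fold lower against 3 counts over the injured group. Crhbp, which binds corticotropin-releasing hormone, was at 64.6 to 92.5 CPM and at 29.9, 41.1 and 26.3 CPM, 2.47-fold lower (log2 -1.30). In cells with 3 to 5% Malat1 the Crhbp value was -0.77 and not past the threshold (adjusted p = 0.146, range 4.32e-10 to 0.146 over 26 alternatives). Sort1, a receptor of neurotensin, was 2.59-fold lower, and Oprl1, the nociceptin receptor, 4.10-fold lower. Sstr2, a somatostatin receptor, was at 1.20 to 3.36 and 0 to 1.05 CPM. Its log2 value of -1.92 was -2.94 without Injured 1. The Sstr2 call was lost without Injured 2 (-1.47, adjusted p = 0.0668) and without Injured 3/4 (-1.73, 0.105). It was also lost with similar libraries as blocks (-1.93, 0.234), within a range of 0.00797 to 0.234 over 18 alternatives. Crhr1, the main receptor of the Crh peptide, was at 26.2 to 46.8 CPM in uninjured and 22.0 to 25.9 CPM in injured samples and did not pass the test (adjusted p = 0.0904).

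**Figure D5:**
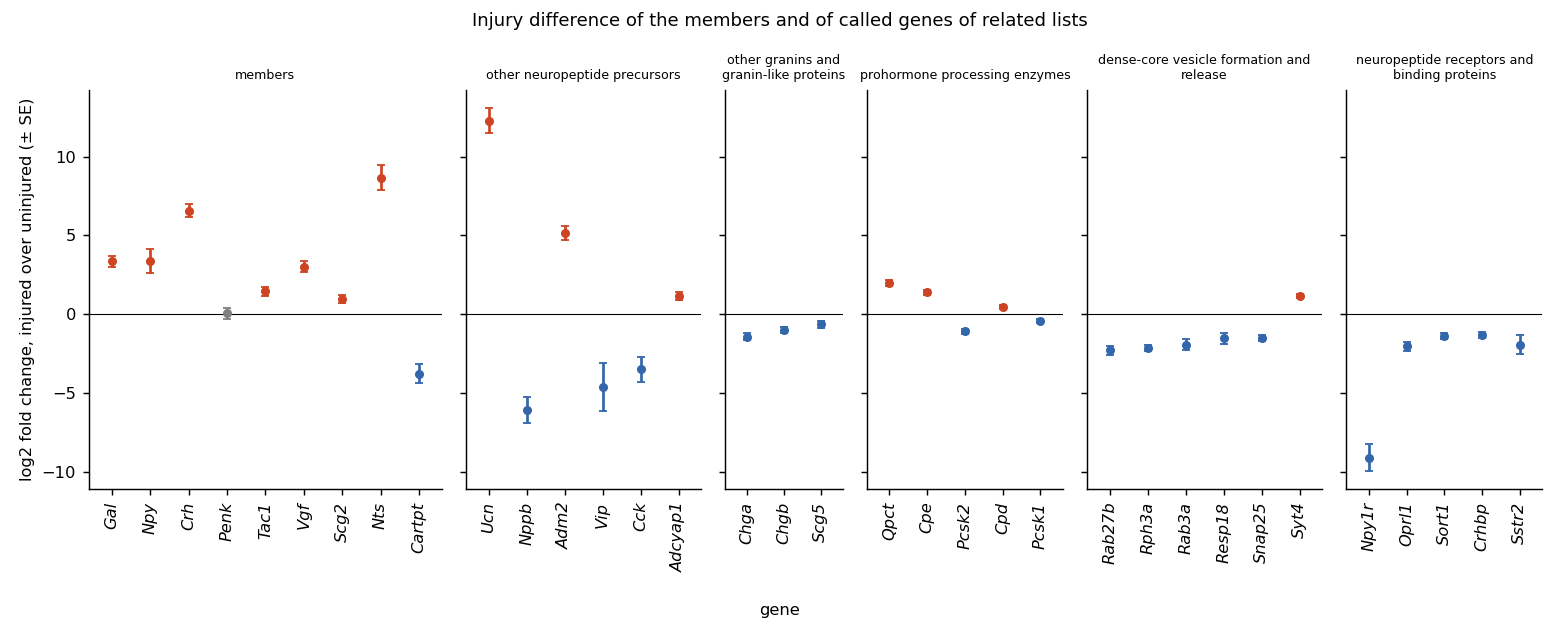
Log2 fold change (injured over uninjured, bars are SE, n = 6 and 3) of the 9 tested members and of called genes of 5 related lists, red for higher, blue for lower and grey for not past the threshold. Most members lie above 0 and the receptors below it; the fitted values of Nts, Ucn, Nppb and Npy1r, which have 0 to 3 UMIs in a group, depend on the prior count and are no bound.

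Injury response genes and marker genes of ganglion cell subtypes differed in level as well. All 10 axon injury response genes rose, with a median of 4.85. Sox11 was at 22.6 to 35.7 CPM in uninjured and 986 to 1145 CPM in injured samples, a 38.7-fold rise, and Gadd45a rose 21.6-fold. Atf3 was at 0 to 2.51 CPM and 761 to 835 CPM, with a log2 value of 9.37, and of 10.51 without Uninjured 4. Ecel1 was at 0 to 1.10 and 665 to 968 CPM and Hrk at 0 to 1.35 and 233 to 290 CPM. Sprr1a had 2 uninjured UMIs against 13999, a ratio of 20182 (counting interval 5586 to 166669). Of 46 subtype markers of ganglion cells, Cartpt among them, 44 were tested, 4 rose (Foxp1, Tpbg, Cdk15 and Ebf3) and 25 fell, with a median of -1.09. Irx4 was at 42.9 to 62.3 CPM in uninjured and 0.875 to 1.07 CPM in injured samples, 56.6-fold lower, and Neurod2 was 23.5-fold lower. The Neurod2 log2 value of -4.56 was -8.53 in cells with 3 to 5% Malat1 and -5.17 without each gene's richest cell. Zic1, the marker of uninjured Penk carriers, was at 0 to 24.7 and 0.225 to 0.537 CPM, and Plpp4 at 4.98 to 23.3 and 0.225 to 0.403 CPM. The fitted log2 values were -5.30 for Zic1 and -4.86 for Plpp4. With similar libraries as blocks neither passed, at values of -4.43 for Zic1 (adjusted p = 0.646) and -4.44 for Plpp4 (0.0725, range 1.41e-09 to 0.0725 over 25 alternatives). The Zic1 call was also lost with 3 to 5% Malat1, at the larger value of -8.13 (0.168, range 1.35e-06 to 0.646 over 23). Trhr, the receptor of thyrotropin-releasing hormone, was at 6.80 to 11.8 and 0 to 0.898 CPM, with a log2 value of -5.03, of -9.09 without Injured 2 and of -4.26 without Injured 3/4.

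Summed markers of amacrine, horizontal and, by a narrow gap, cone cells were lower in every injured sample than in any uninjured sample, as was the sum of ganglion cell markers (5728 to 8165 CPM uninjured, 4273 to 5427 CPM injured). The sums of the other retinal cells overlapped between the groups. The sums carry no test of their own, and their part in the peptide levels was not tested. They are sums of transcripts and do not count cells of a class. Slc4a3 alone was at 101 to 127 CPM in uninjured and 42.9 to 54.8 CPM in injured samples. Calb1, of the horizontal list, is also one of the ganglion cell subtype markers that fell. The share of cells that carry Gad1 overlapped between the groups (4.50 to 16.3% and 3.63 to 8.76%). All 9 amacrine cell markers were detected, and their summed level was 581, 549, 597, 646, 533 and 543 CPM in the uninjured samples and 340, 300 and 180 CPM in the injured samples, with Pax6 the most abundant (300 to 354 and 76.3 to 121 CPM). The horizontal cell list, with 3 of 4 detected and Lhx1 at 0, summed to 159, 206, 259, 213, 281 and 255 CPM and to 67.9, 64.0 and 69.3 CPM, with Slc4a3 on top. The amacrine list was lowest in Injured 3/4, the sample with most Npy. All 7 markers of microglia and macrophages were detected, with sums of 1.68 to 10.5 CPM in uninjured samples and 12.4, 17.7 and 5.24 CPM in injured ones, Cx3cr1 on top. The 7 rod markers summed to 3.71 to 25.7 and to 3.85, 25.4 and 2.42 CPM (Sag on top), and the 5 cone markers to 0.453 to 2.36 and 0.175 to 0.449 CPM (Opn1mw on top). The bipolar list, with 6 of 7 detected and Vsx1 at 0, summed to 1.01 to 7.35 and 0.525 to 1.12 CPM (Pcp2 on top). The 7 Muller glia markers summed to 117 to 184 and 109 to 140 CPM (Dkk3 on top), the 3 astrocyte markers to 5.33 to 27.2 and 5.43 to 6.29 CPM (S100b on top), and the 5 vascular markers to 0.453 to 4.04 and 1.58 to 2.92 CPM (Pecam1 on top). The 9 immediate early and dissociation stress genes summed to 101 to 439 and 259 to 389 CPM, with Fos at 32.4 to 192 and 13.8 to 18.2 CPM. The Malat1 share of UMIs, a median of 1.72 to 4.82% in uninjured and 6.37 to 7.78% in injured libraries, differed too.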

How the data were processed

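Alignment by the authors was to mm39 with Cell Ranger (7.0.1 per the labels, an earlier version per the study's methods). The authors selected ganglion cells and deposited raw UMI counts per cell and gene, of 2839693 to 23180399 UMIs per library. All deposited cells met the limits used here (at least 500 genes, at most 20% mitochondrial UMIs, at most 150000 UMIs) and were kept. Doublets were not called, and cells with 3 or more markers of another retinal class were left out in an alternative. Counts were summed per library, and those of Injured 3 and 4 were averaged and rounded, a tie going to the even number. In a first fit ties had been rounded down, and with that rounding 6258 of 14218 tested genes were called, in place of 6256 of 14234, and every member kept its call. The comparison of 6 uninjured with 3 injured samples used edgeR 4.0.16 (filterByExpr, TMM factors, robust quasi-likelihood test) in R 4.3.3, with Benjamini-Hochberg adjustment over all genes tested and a threshold of 0.05. CPM are scaled by TMM factors. The fit was checked on simulated data, with 200 of 14234 genes changed and all samples independent. Of 194 changed genes tested it called 137, and it made 5 false calls. It recovered 49% of changes of log2 1 and 91.8% of log2 2. The real data have 44.0% of genes called and similar libraries, a setting that this check does not cover. Cells were thinned to 8000 UMIs (seed 1, shallower cells left out) with Python 3.11.15, numpy 2.4.6, pandas 2.3.3 and scipy 1.17.1, and figures were drawn with matplotlib 3.10.9.

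The alternatives were DESeq2 1.42.0, limma-voom (limma 3.58.1) with similar libraries as blocks, other scalings, filters and choices of cells, 10 separate libraries, a replicate block, and each sample left out. The exclusion of each gene's richest cell and the rounding down were chosen after seeing the data. The members and lists were chosen with earlier results of these data known, and no p was adjusted over a list. The 7 lists were the other neuropeptide precursors, other granins, prohormone processing enzymes, dense-core vesicle genes, peptide receptors, axon injury genes and subtype markers, beside 11 lists of cell type markers. Named are all 10 members, up to 6 genes of each list with the largest absolute log2 fold change among those past the threshold with a group mean of at least 5 CPM, every called gene of a list with 5 or fewer calls, and the 5 genes most like each member carried by under 50% of thinned uninjured cells, in uninjured and in injured samples. Some genes that the rule names are not reported here. Other genes named with the lists were named after their values were seen. Markers of carriers were chosen for description from the subtype and injury lists after their values were seen. Gene positions come from GENCODE M39 (GRCm39) and promoters from RefSeq.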

Additional observations from a re-analysis of the deposited data

Results flagged for a closer look

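In 9 of 67 groups of 6 uninjured samples a single sample stood far from the others, with a gap to the nearest sample above Dixon's limit for 6 samples, which chance gives in about 1 of 20 groups. Sst was at 0.0823 CPM in Uninjured 4 and Nts at 0.150 CPM in Uninjured 3, each at 0 in the other uninjured samples, and Nts was carried by 0.278% of thinned cells of Uninjured 3. Sprr1a was at 0.184 CPM in Uninjured 5. These 4 values rest on 2 UMIs of each gene in all uninjured cells, where a gap this wide follows from the zeros, so they do not set a sample apart. Uninjured 4 was highest for Atf3, at 2.51 CPM (median 0.577), and for Neurod2, at 23.0 CPM (median 15.3). Trhr was at 11.8 CPM in Uninjured 1 (median 7.42). Uninjured 5 was highest for the summed rod markers, at 25.7 CPM (median 6.79), and the summed astrocyte markers, at 27.2 CPM (median 7.97).

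UMIs of mCherry, a sequence outside the mouse genes, were found in 7.99% of cells of Injured 1, 15.0% of Injured 2, 86.0% of Injured 3 and 84.3% of Injured 4, and in 0% of cells of the uninjured libraries.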

How the results depend on the processing

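Over 26 alternatives of the fit, the log2 fold changes of the members kept their direction and their side of the threshold in 212 cases, lost the threshold in 8 and turned in 7, all 7 of Penk. Penk was at -0.00487 with library totals, -0.19 in cells with 3 to 5% Malat1, -0.37 in cells without mCherry, -0.01 with 10 separate libraries and -0.01 with similar libraries summed. The lost calls were Npy without mCherry cells (0.99), with 3 to 5% Malat1 (2.38), with similar pairs as blocks (2.98) and without Injured 3/4 (1.41); Scg2 with 3 to 5% Malat1 (0.44), without mCherry cells (0.69) and with similar libraries summed (0.95); and Nts with similar pairs as blocks (7.43). DESeq2 gave no adjusted p for Npy, and Nts could not be tested with at least 10 counts in every sample, in thinned cells, with 3 to 5% Malat1 or without mCherry cells. Genes of the lists kept their call in 857 cases, lost it in 40 and turned in 1, Pcsk1 at 0.23 with 3 to 5% Malat1.

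Calls over all genes were 3528 of 10725 tested with 3 to 5% Malat1. They were 4181 of 15454 with similar libraries summed and 4296 of 14234 with similar pairs as blocks. Rounding ties down in the average of Injured 3 and 4, an alternative added after seeing the data, gave 6258 of 14218 against 6256 of 14234, and all members kept their call. Members called were 5 with at least 10 counts (6 tested), 5 with 3 to 5% Malat1 (8 tested) and 5 without mCherry cells (8 tested). Other precursors called were 2 with at least 10 counts, 5 without cells of another class, 4 with 3 to 5% Malat1, 5 without mCherry cells, 5 with similar pairs as blocks and 5 without each gene's richest cell, added after seeing the data. Enzymes called were 3 in thinned cells, with 3 to 5% Malat1, with similar libraries summed and with similar pairs as blocks, and 8 with libraries 1 to 4. Dense-core vesicle genes called were 6 with similar libraries summed. Receptors called were 3 with at least 10 counts and 3 with 3 to 5% Malat1. Injury genes called were 6 with at least 10 counts (6 tested). Subtype markers called were 18 with at least 10 counts, 17 with 3 to 5% Malat1 and 19 with similar pairs as blocks. Stricter filters and smaller sets of cells leave fewer genes to test. The fits with similar libraries summed or as blocks tested no fewer genes over all and still called fewer. Other causes were not tested.

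Libraries 1 to 4 of each condition with the number as a replicate block gave 7782 calls, against 8230 without it, 8 enzymes in both, and Cartpt at -3.03. Adm2 was at 6.00 with the block and 5.95 without it, against 5.16 in the fit of all samples. These fits count Injured 3 and Injured 4, which differ by no more than counting noise, as separate replicates, so the number of replicates is above that of distinct samples and the higher number of calls is no gain. Correlations of libraries with the same number were -0.075, 0.035, -0.026 and -0.087, which gives no sign that the numbers pair libraries. With so few libraries, and Injured 3 and 4 not distinct, these values cannot exclude a pairing.

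Differences in carrier share, in percentage points, moved by more than the spread between samples without thinning for Npy (0.875), Crh (12.3), Vgf (44.1), Nts (4.98) and Cartpt (-61.4), and with at least 3 UMIs for Gal (5.88), Crh (4.68), Tac1 (25.6), Vgf (28.2), Scg2 (16.9), Nts (1.37) and Cartpt (-22.3), while Penk turned (-1.14).

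Leaving out 1 sample at a time gave 4961 to 6420 calls over all genes, 7 to 8 members, 6 to 10 other precursors, 2 to 3 granins, 3 to 5 enzymes, 7 to 11 dense-core vesicle genes, 5 to 6 receptors, 10 to 10 injury genes and 23 to 30 subtype markers. The log2 ranges were 2.79 to 3.65 for Gal, 1.41 to 3.87 for Npy, 6.34 to 7.28 for Crh, -0.13 to 0.20 for Penk, 1.21 to 1.69 for Tac1, 2.86 to 3.22 for Vgf, 0.86 to 1.13 for Scg2, 7.80 to 10.30 for Nts and -3.92 to -3.55 for Cartpt. Share differences ran from 13.8 to 16.1 for Gal, 1.53 to 4.31 for Npy, 10.6 to 11 for Crh, 0.876 to 3.10 for Penk, 30.2 to 37.8 for Tac1, 50.5 to 53.6 for Vgf, 5.86 to 9.27 for Scg2, 3.04 to 4.81 for Nts and -48.8 to -46.1 for Cartpt.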
